A study of Mus musculus with 9 samples.

Results

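The aminoacyl-tRNA synthetases of the mouse heart were examined as 36 genes, 20 for enzymes of the cytosol and 16 for enzymes of the mitochondrion, out of 13890 genes with counts in the deposited table. The members were taken by gene symbol, and a symbol that ends in 2 marks a mitochondrial enzyme. Each of the 36 had counts in all 9 libraries, from 61 for Pars2 up to 84546 for Lars2, and each was among the 13364 genes that passed the filter on low counts.

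An aminoacyl-tRNA synthetase joins an amino acid to its transfer RNA (tRNA), the step that gives the ribosome its building blocks. The cytosol and the mitochondrion each need a set of these enzymes. Nuclear genes encode both sets, and the mitochondrial enzymes serve the few proteins of the respiratory chain that mitochondrial DNA encodes, which the heart uses heavily. Kars and Gars each supply both compartments from a single gene. Eprs carries the glutamyl and the prolyl enzyme in a single chain, and Farsa and Farsb are the 2 subunits of the phenylalanyl enzyme. Several cytosolic enzymes sit together on scaffold proteins in the multi-synthetase complex. Some cytosolic synthetase genes are known targets of Atf4, the transcription factor of the amino acid response.

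The hearts came from male NSG mice, an immunodeficient strain without lymphocytes that accepts human tumour cells. The mice were 8 weeks old and were killed about 3 weeks after the intervention. The libraries labelled S (animals 2, 3 and 5) came from sham-operated mice given saline. Those labelled T (animals 11, 12 and 15) were described as carrying HCT116, a cell line from a human colorectal tumour, which was injected into the spleen so that it spreads to the liver. Those labelled A + T (animals 20, 21 and 22) were described as HCT116 hosts that also received ACVR2B/Fc each week, a soluble activin receptor fused to an antibody Fc fragment. The model is a single tumour line in a host without adaptive immunity. None of the 9 libraries was labelled as coming from a tumour-free mouse given ACVR2B/Fc.

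The label of T was in doubt. The fold changes of T vs. S did not match those listed by the study for tumour hosts vs. sham. They lay close to those it listed for sham mice given ACVR2B/Fc. Those of A + T vs. T matched none of the comparisons in that list. Exchanged libraries and group names exchanged in that list cannot be told apart here. Every direction below is therefore that of the libraries labelled T, and these 3 libraries enter both T vs. S and the comparison of A + T with T. The libraries held between 12392222 and 19732471 counts on genes. Ribosomal RNA (the gene Rn45s) took between 4.57% and 19.6% of them and varied within every group. The heart's own markers were abundant in all libraries, with 6 ventricular genes summing to between 39734 and 61856 CPM (counts relative to the TMM-scaled library total). Libraries 12 and 22 stood apart by airway and lung genes, which summed to 104 and 1278 CPM there and to no more than 2.39 CPM elsewhere. On the first principal component, which held 34% of the variance, the S libraries lay between -34.4 and -28.3, T between 24.2 and 26.5, and A + T between 0.823 and 13.5.

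The promoters are shown first because the data bear on whether synthetase genes with an Atf4 motif moved together. RefSeq windows on GRCm38.p6, from 250 bases before to 50 after the start site, were found for 26 of the 36 members. The CARE motif, bound by Atf4 with a C/EBP partner, was searched as TGATGNAA on both strands. It was present in 5 of 12 cytosolic windows (41.7%; Aars, Gars, Iars, Tars and Yars) and in 0 of 14 mitochondrial windows, against 4.51% of the 27025 windows of all genes. The E-box of Myc and Max, CACGTG, was present in 4 of 12 cytosolic windows (33.3%; Aars, Farsb, Iars and Tars), in 1 of 14 mitochondrial windows (7.14%; Ears2) and in 8.09% of all. The 2 motifs share no position, and a match is a match of letters, not a binding site. The sequences with a CARE before the start site are given 5′ to 3′ on the strand of the gene, with the CARE, which lies on the opposite strand in all of them, in capitals (Aars, chr8:111033704-111033763, plus strand; Gars, chr6:55037945-55038000, plus strand; Tars, chr15:11399659-11399699, minus strand).
Aars: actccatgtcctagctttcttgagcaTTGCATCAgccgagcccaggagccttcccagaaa
Gars: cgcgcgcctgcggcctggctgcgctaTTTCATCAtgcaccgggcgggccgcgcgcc
Tars: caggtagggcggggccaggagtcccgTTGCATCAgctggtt

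The CARE shown for Aars lay at -112 to -105, that of Gars at -30 to -23 and that of Tars at -15 to -8, counted back from the base before the start site. Aars held another CARE after the start site, at 9 to 16, and in Iars and Yars the CARE also lay after it. E-boxes before the start site were found in Aars, Farsb and Iars, here in capitals in the windows of the latter pair (Farsb, chr1:78488905-78488962, minus strand; Iars, chr13:49682035-49682092, plus strand).
Farsb: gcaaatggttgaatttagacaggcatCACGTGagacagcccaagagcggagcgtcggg
Iars: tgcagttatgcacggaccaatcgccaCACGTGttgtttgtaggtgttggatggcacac

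The 80 bases before the start site of the 3 cytosolic genes that rose in T and had a window held neither motif (Kars, chr8:112011355-112011434, minus strand; Eprs, chr1:185362964-185363043, plus strand; Qars, chr9:108507925-108508004, plus strand).
Kars: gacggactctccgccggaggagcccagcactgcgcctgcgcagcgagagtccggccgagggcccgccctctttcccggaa
Eprs: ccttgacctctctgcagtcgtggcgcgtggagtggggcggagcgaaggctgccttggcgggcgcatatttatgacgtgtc
Qars: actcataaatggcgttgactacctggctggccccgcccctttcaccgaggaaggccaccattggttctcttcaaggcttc

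In T vs. S, which asks how the hearts labelled T differ from sham, 4 cytosolic synthetases rose and none fell, by edgeR's quasi-likelihood test with a Benjamini-Hochberg adjusted P-value under 0.05 over all genes tested. These were Kars, Cars, Eprs and Qars, the enzymes for lysine, cysteine, glutamate with proline, and glutamine. That is 4 of 20, where 10.3% of all genes tested passed as higher and 11% as lower. The fold changes of 16 of the 20 were above 0, with a median log2 fold change of 0.14 against -0.0038 over all genes, and the range ran from -0.10 (Yars) to 0.34 (Kars). The groups did not overlap for 11 of the 20, in 10 of which T was higher, where 42.6% of all genes had no overlap. No member, cytosolic or mitochondrial, reached the thresholds used in the study, a 1.5-fold change together with a P-value under 0.05 before adjustment, which 14.2% of all genes reached. In whole heart, fewer cells of a type and less RNA per cell cannot be told apart.

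Kars (chr8:111993443-112011323, minus strand, GRCm38) had the highest level per length of the cytosolic enzymes, at 5.87 on the deposited log2 scale as a mean of the 9 libraries. It measured 125, 129 and 114 CPM in S, 166, 146 and 154 CPM in T, and 125, 116 and 137 CPM in A + T. All 3 libraries of T were above the 6 others. Its log2 fold change was 0.34 ± 0.090 (SE, n = 3 per group, edgeR adjusted P = 0.0235) in T vs. S.

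Eprs (chr1:185363044-185428360, plus strand) measured 151, 161 and 148 CPM in S, 201, 185 and 178 CPM in T, and 148, 155 and 140 CPM in A + T. T again lay above all other libraries, and the ranges of S and A + T overlapped. The log2 fold change was 0.29 ± 0.079 in T vs. S (edgeR adjusted P = 0.0248).

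Cars (chr7:143557230-143600090, minus strand) was among the cytosolic enzymes with the lowest level per length, at 2.70 on the log2 scale. Its libraries held 19.3, 21.2 and 18.7 CPM in S, 25.3, 23.0 and 25.2 CPM in T, and 18.6, 20.5 and 18.7 CPM in A + T. The T libraries stood above the rest, and the log2 fold change was 0.31 ± 0.089 in T vs. S (edgeR adjusted P = 0.0309).

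Qars (chr9:108507706-108515941, plus strand) measured 64.3, 64.2 and 67.0 CPM in S, 79.1, 76.0 and 72.9 CPM in T, and 71.1, 64.7 and 64.3 CPM in A + T. The lowest library of T was above the highest of A + T by less than the range within A + T. The log2 fold change of 0.22 ± 0.072 was just inside the threshold (edgeR adjusted P = 0.0494), with Dars (0.23, adjusted P = 0.0579) and Lars (0.23, adjusted P = 0.0582) just outside it.

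The calls in T vs. S depended on single libraries. Of the 9 fits that each left out a library, Kars and Eprs passed in 6, Cars in 5 and Qars in 1, and all 4 stayed above 0 in each. These include the fits without animal 20, 21 or 22 (A + T), whose libraries are not compared in T vs. S. Kars, Eprs and Cars passed in each of those, and Qars passed only without animal 22. The count of 4 cytosolic calls became 0 without animal 5 (S), 0 without animal 11 (T), 1 without animal 2 (S), which was Vars and none of these 4, and 7 without animal 22 (A + T). With library size as the only scaling it was 0, with 14 of 20 fold changes above 0, and with the share of Rn45s as a covariate it was 2 (Cars and Kars).

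**Figure D1:**
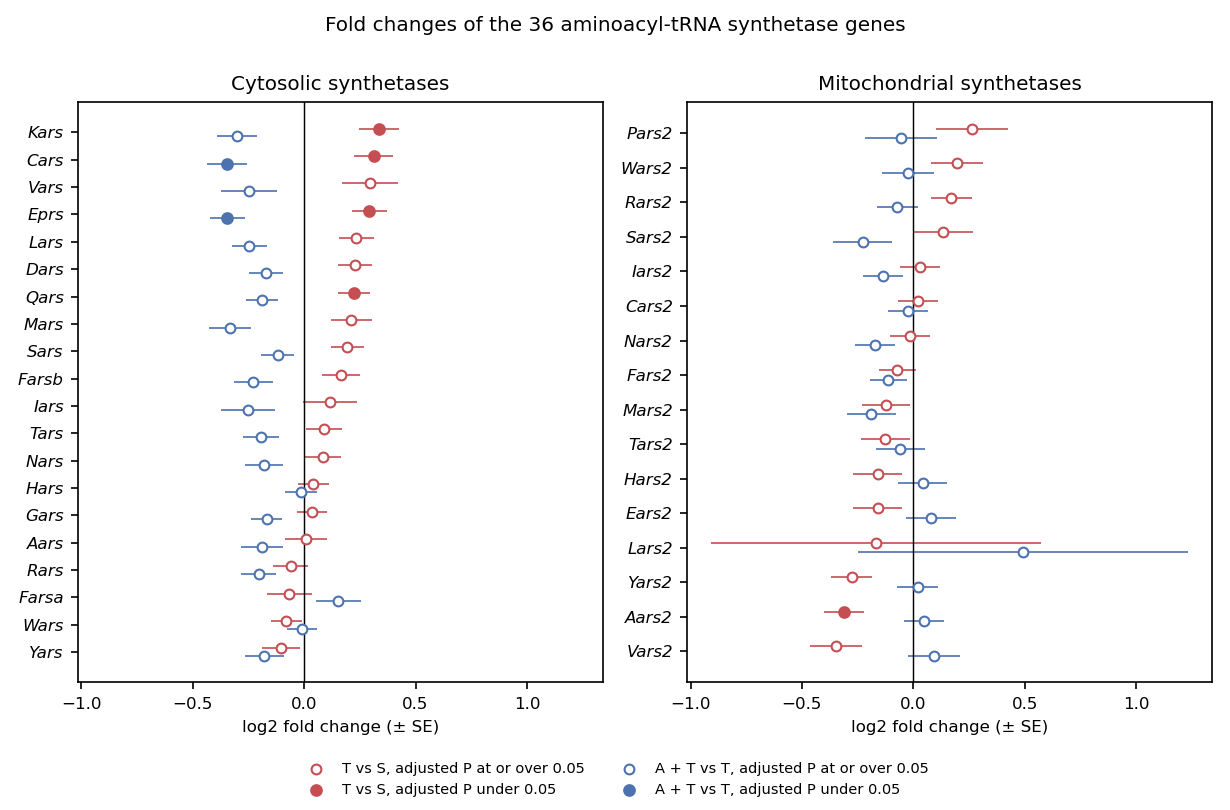
Log2 fold change with its standard error (horizontal axis) of each cytosolic synthetase (left) and mitochondrial synthetase (right), in T vs. S (red) and A + T vs. T (blue), n = 3 libraries per group, with filled points at an adjusted P-value under 0.05. Of the 20 cytosolic enzymes, 16 lie above 0 in T vs. S and 19 below 0 in A + T vs. T, which shares the T libraries, and Lars2 has by far the widest error.

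**Figure D2:**
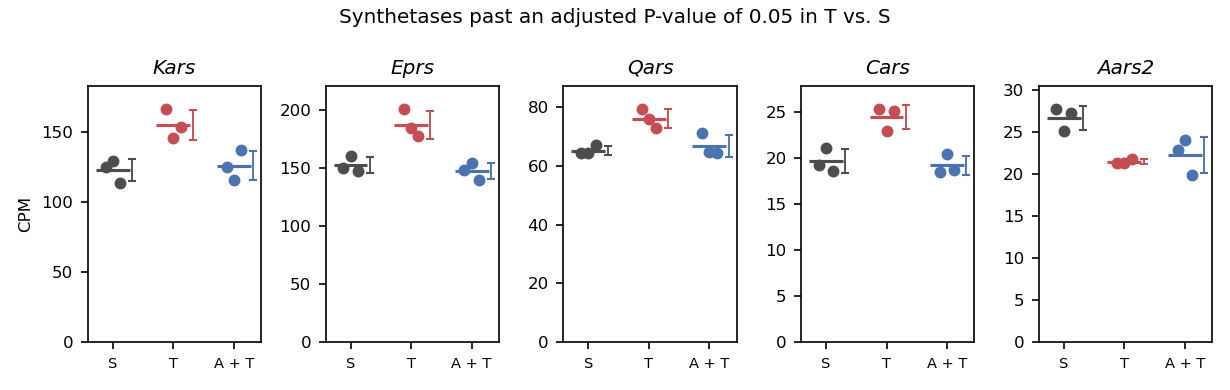
CPM (vertical axis, from 0) of the 5 synthetases that passed an adjusted P-value of 0.05 in T vs. S, with a point per library, a line at the group mean and the SD beside it. Kars, Eprs, Qars and Cars are highest in the 3 T libraries, and Aars2 is lower in T (21.3 to 21.9 CPM) than in S (25.1 to 27.8 CPM).

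By the labels, A + T vs. T asks what differed between hosts with and without ACVR2B/Fc. In it, 19 of the 20 cytosolic synthetases had a fold change below 0, and 2 of them fell. Eprs fell by 0.35 ± 0.079 on the log2 scale (edgeR adjusted P = 0.0329) and Cars by 0.35 ± 0.089 (edgeR adjusted P = 0.0481). Over all genes, 2.79% passed as lower and 3.09% as higher. The median of the cytosolic list was -0.19, against 0.0098 for all genes, and the exception above 0 was Farsa, at 0.15 (adjusted P = 0.403). The groups did not overlap for 11 of the 20, all with A + T lower, where 25.4% of all genes had no overlap, and 8.11% of all genes but no member reached the study's thresholds.

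Values of the next enzymes in line were -0.33 for Mars, which charges the initiator tRNA (adjusted P = 0.0643), -0.30 for Kars (adjusted P = 0.0776) and -0.25 for Lars (adjusted P = 0.0959). Mars measured 55.0, 50.4 and 47.6 CPM in T and 38.2, 44.2 and 39.1 CPM in A + T. Eprs passed in 2 of the 9 fits that left out a library and Cars in 0, so that the count of 2 cytosolic calls fell to 0 or 1 in 8 of these fits and was 2, Eprs and Kars, without animal 22 (A + T). It was 1 (Eprs) without animal 15 (T) and 0 without any other library. With upper-quartile scaling or library size only, or with the 2 groups fitted alone, the count was 0, and with DESeq2 it was 4.

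No cytosolic synthetase passed the adjusted threshold in A + T vs. S, where 4.67% of all genes passed as higher and 3.64% as lower, and 2 of 20 had an unadjusted P-value under 0.05. DESeq2, the likelihood ratio test and limma-voom called 0 as well. The median log2 fold change was -0.058, with 7 above and 13 below 0 and a range from -0.28 to 0.086. The median was -0.012 without animal 22 (A + T) and -0.026 without animal 3 (S). The groups did not overlap for 6 of the 20, of which 5 were lower in A + T, where 32.4% of all genes had no overlap, and 8.91% of all genes but no member reached the study's thresholds. The most negative values were those of Yars (-0.28, adjusted P = 0.0693) and Rars (-0.27, adjusted P = 0.0609). Yars measured 30.5, 30.4 and 28.2 CPM in S, 28.2, 25.8 and 29.1 CPM in T, and 24.4, 22.6 and 26.2 CPM in A + T. Rars, which charges arginine, measured 39.7, 42.8 and 41.2 CPM in S, 41.0, 40.9 and 36.6 CPM in T, and 33.2, 33.7 and 36.04 CPM in A + T. For both, the lowest library of S was above the highest of A + T.

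Summed over the 20 cytosolic genes, the libraries held 1175, 1208 and 1159 CPM in S, 1382, 1307 and 1288 CPM in T, and 1139, 1172 and 1104 CPM in A + T. The sum was higher in each T library than in any other library. The mean of T was the highest of the 3 groups for 16 of the 20 genes, and the mean of A + T was the lowest for 13.

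The enzymes of the multi-synthetase complex (Eprs, Iars, Lars, Mars, Qars, Rars, Kars and Dars) were grouped after their values had been seen. In T vs. S, 7 of the 8 had a fold change above 0, with a median log2 fold change of 0.23. Among the 8, 3 rose (Eprs, Kars and Qars), where 10.3% of all genes tested were called higher. The other 12 cytosolic genes (Aars, Cars, Farsa, Farsb, Gars, Hars, Nars, Sars, Tars, Vars, Wars and Yars) had 9 above 0, 1 that rose (Cars) and a median of 0.062. The medians in A + T vs. T were -0.25 for the complex and -0.18 for the rest, with all 8 and 11 of 12 below 0. No difference between these groups of genes was tested. The complex enzymes summed to 644, 667 and 635 CPM in S, 811, 752 and 727 CPM in T, and 636, 648 and 618 CPM in A + T, so that T lay apart from both other groups. The other 12 summed to between 525 and 541 CPM in S, 555 and 571 CPM in T, and 486 and 524 CPM in A + T. Here too every T library was above those of S and A + T. The non-catalytic scaffold genes of the complex, Aimp1, Aimp2 and Eef1e1, included no call in any comparison. Aimp1 had a log2 fold change of 0.23 (adjusted P = 0.124) and Eef1e1 of -0.37 (adjusted P = 0.142) in T vs. S.

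**Figure D3:**
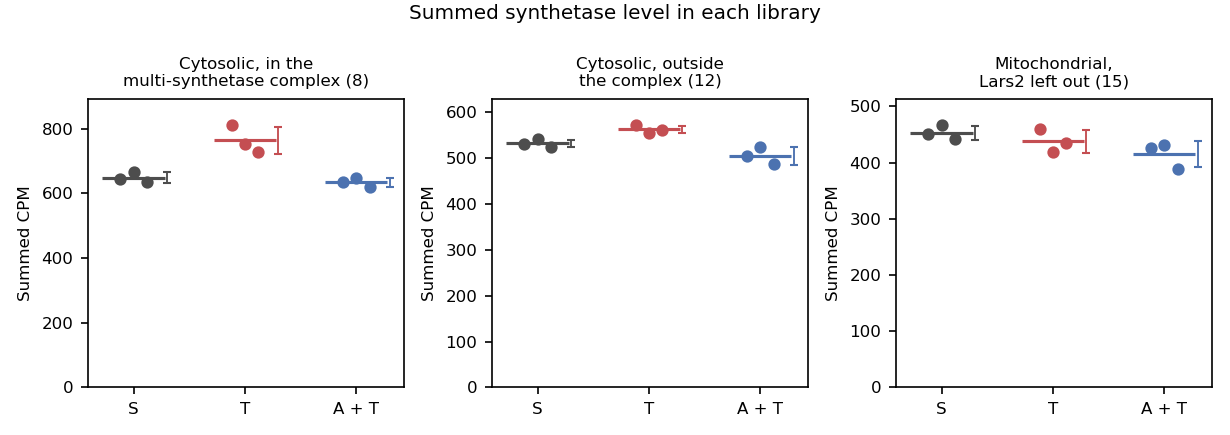
Summed CPM (vertical axis, from 0) in each library of the 8 cytosolic enzymes of the multi-synthetase complex, the 12 other cytosolic enzymes and the 15 mitochondrial enzymes other than Lars2, with a line at the group mean and the SD beside it (n = 3). The T libraries hold the highest sums in both cytosolic panels (727 to 811 CPM for the complex), and in the mitochondrial panel T (419 to 459 CPM) overlaps both S (442 to 467 CPM) and A + T (388 to 432 CPM).

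None of the 5 cytosolic genes with a CARE in the window rose in T. Their log2 fold changes in T vs. S were 0.0082 for Aars, 0.034 for Gars, 0.11 for Iars, 0.087 for Tars and -0.10 for Yars, with 0 called, where 10.3% of all genes were called higher, and a median of 0.034. The 7 cytosolic genes whose window held no CARE had a median of 0.22, and 3 of them rose. All 5 genes with a CARE were below 0 in A + T vs. S. None passed, where 3.64% of all genes passed as lower. Their median was -0.14, against 0.037 for the 7 others. In A + T vs. T both medians were -0.19. A split by the E-box gave similar medians, and Aars, Iars and Tars held both motifs. The 4 genes with an E-box had medians of 0.10 in T vs. S and -0.12 in A + T vs. S, with 0 called. The 8 whose window held none had medians of 0.21 and 0.036, and 3 of them rose in T. Aars, which charges alanine, measured 75.3, 73.7 and 72.7 CPM in S, 74.8, 68.5 and 79.9 CPM in T, and 67.7, 70.9 and 57.1 CPM in A + T. Its S libraries lay within the range of T and above all of A + T. The 8 cytosolic genes with no window, Cars among them, could not be placed in any of these groups. No difference between the groups was tested.

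Among the mitochondrial synthetases, 1 of 16 fell in T vs. S and none rose, where 11% of all genes passed as lower and 10.3% as higher, so the share was no higher than the background. This was Aars2, the mitochondrial alanyl enzyme (chr17:45506841-45520843, plus strand). It measured 27.8, 25.1 and 27.3 CPM in S, 21.3, 21.4 and 21.9 CPM in T, and 22.9, 24.05 and 19.9 CPM in A + T. Both T and A + T lay below every S library, and they overlapped each other. The log2 fold change was -0.31 ± 0.091 in T vs. S (edgeR adjusted P = 0.0339) and -0.26 ± 0.090 in A + T vs. S (edgeR adjusted P = 0.0985). Of the 9 fits that each left out a library, 4 kept the call in T vs. S. The count of mitochondrial calls was 0 without animal 2, 5, 11, 12 or 15 and 2 without animal 20, and DESeq2 called none.

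Vars2 and Yars2, the mitochondrial valyl and tyrosyl enzymes, were chosen after their values were seen because they lay nearest to the threshold. Vars2 measured 19.96, 19.3 and 19.6 CPM in S and 15.9, 13.9 and 16.7 CPM in T (log2 fold change -0.35 ± 0.12, edgeR adjusted P = 0.0574). Yars2 measured 22.4, 24.8 and 20.8 CPM in S and 19.5, 18.7 and 18.0 CPM in T (log2 fold change -0.28 ± 0.091, edgeR adjusted P = 0.055). In neither did the groups overlap.

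Over the 16 mitochondrial genes the median log2 fold change was -0.10 in T vs. S, with 6 above and 10 below 0. The median rested on single libraries and turned to 0.011, with 8 above and 8 below 0, without animal 12 (T), and to 0.019 without animals 12 and 22. It was -0.044 without animal 2 (S), -0.059 without animal 3 (S) and -0.054 without animal 15 (T). The groups did not overlap for 6 of the 16, against 42.6% of all genes. The positive end was held by Pars2 (0.26), Wars2 (0.20), Rars2 (0.17) and Sars2 (0.14), with adjusted P-values between 0.211 and 0.497. None of the 16 passed in A + T vs. T, where the median was -0.041 and 1 had no overlap, against 25.4% of all genes. That median was -0.012 without animal 11 (T), -0.017 with library size only and 0.0050 with upper-quartile scaling. None had an unadjusted P-value under 0.05 there, and DESeq2, the likelihood ratio test and limma-voom called 0. A median of -0.11 was found in A + T vs. S, where 12 of 16 were below 0 and 6 had no overlap, all lower in A + T, against 32.4% of all genes. Without animal 22 (A + T) it was -0.048. None passed in edgeR's quasi-likelihood test or in those other 3, and 4 had an unadjusted P-value under 0.05. The most negative value there was that of Mars2 (-0.31, adjusted P = 0.102), and Cars2, Ears2, Fars2, Hars2, Iars2, Nars2 and Tars2 lay between -0.19 and -0.0015.

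Left without Lars2, the mitochondrial genes summed to 451, 467 and 442 CPM in S, 459, 419 and 435 CPM in T, and 426, 432 and 388 CPM in A + T. The T libraries overlapped those of both other groups, whereas every A + T library was below every S library. The median log2 fold changes of these 15 genes were -0.072 in T vs. S, -0.057 in A + T vs. T and -0.12 in A + T vs. S.

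Lars2, the mitochondrial leucyl enzyme (chr9:123366927-123462666, plus strand), had the highest level per length of all 36, at 9.04 on the deposited log2 scale. Among the mitochondrial genes, Iars2 followed with 5.31 and Pars2 was lowest with 0.73. Lars2 measured 4675, 1388 and 1405 CPM in S, 808, 768 and 5080 CPM in T, and 1484, 3830 and 4045 CPM in A + T. High and low libraries occurred in every group. The log2 fold changes were -0.17 ± 0.74 in T vs. S (edgeR adjusted P = 0.896), 0.49 ± 0.74 in A + T vs. T (edgeR adjusted P = 0.743) and 0.33 ± 0.74 in A + T vs. S (edgeR adjusted P = 0.823). The largest coefficient of variation within a group was 112% for Lars2 and 14.3% for any other mitochondrial gene.

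The level of Lars2 moved with that of Rn45s. The 4 libraries with over 17% of their counts on Rn45s (animals 2, 15, 21 and 22) held between 3830 and 5080 CPM of Lars2, and the 5 others, with at most 9.5%, between 768 and 1484 CPM. Per 100 counts of Rn45s there were between 1.56 and 2.25 counts of Lars2 in all 9 libraries. The libraries form 2 clusters, so no correlation was computed, and what part Rn45s has in the counts of Lars2 was not tested. With the share of Rn45s as a covariate, the fold changes of Lars2 became 0.22 in T vs. S, -0.25 in A + T vs. T and -0.022 in A + T vs. S.

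**Figure D4:**
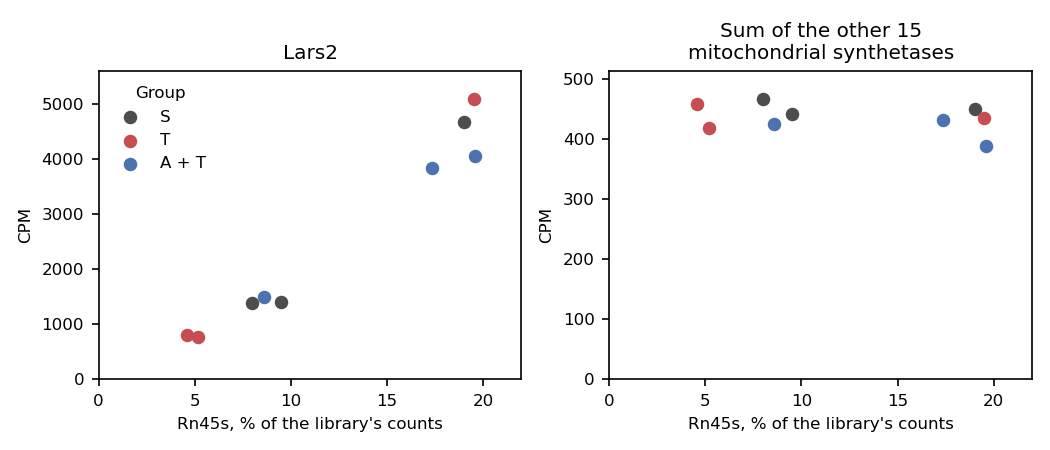
CPM (vertical axes, from 0) of Lars2 (left) and of the 15 other mitochondrial synthetases summed (right) against the percentage of a library's counts on Rn45s (horizontal axis), with a point per library coloured by group. Lars2 lies between 3830 and 5080 CPM in the 4 libraries with the highest Rn45s and between 768 and 1484 CPM in the others, whereas the sum of the rest lies between 388 and 467 CPM throughout.

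The other steps of tRNA charging were described by lists with no test over a list. Of 4 genes that finish tRNA ends or edit mischarged tRNA, all 4 were above 0 in T vs. S with no overlap, and 2 rose, where 42.6% of all genes had no overlap and 10.3% were called higher. Trnt1, which adds the CCA end that receives the amino acid, measured 29.6, 26.8 and 27.1 CPM in S, 35.0, 43.6 and 33.2 CPM in T, and 32.0, 32.2 and 32.1 CPM in A + T (log2 fold change 0.42 ± 0.10 in T vs. S, edgeR adjusted P = 0.0162). Dtd1, which removes D-amino acids from tRNA, measured 8.68, 9.19 and 7.67 CPM in S, 12.4, 10.7 and 10.9 CPM in T, and 10.9, 11.9 and 12.1 CPM in A + T. It rose in T vs. S (0.41 ± 0.12, edgeR adjusted P = 0.0343) and in A + T vs. S (0.44 ± 0.12, edgeR adjusted P = 0.0468). Dtd2 (0.39, adjusted P = 0.0535) and Aarsd1 (0.26, adjusted P = 0.0656) did not pass in T vs. S.

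Of 4 partners of mitochondrial charging, 1 fell in T vs. S and in A + T vs. S. Over all genes, 11% and 3.64% were called lower there. Qrsl1, a subunit of the amidotransferase that makes mitochondrial glutaminyl-tRNA in the absence of a glutaminyl synthetase there, measured 30.8, 29.9 and 32.5 CPM in S, 22.7, 18.2 and 22.2 CPM in T, and 25.0, 22.8 and 19.3 CPM in A + T. All 6 libraries of T and A + T were below those of S. The log2 fold change was -0.57 ± 0.12 in T vs. S (edgeR adjusted P = 0.00711) and -0.48 ± 0.12 in A + T vs. S (edgeR adjusted P = 0.0327). Gatb and Gatc, its partner subunits, and Mtfmt lay between -0.16 and 0.14 in the 3 comparisons and did not pass.

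Uncharged tRNA activates the kinase Eif2ak4, which phosphorylates the translation factor subunit Eif2s1 and thereby raises Atf4. Among 8 genes of the kinases, their target and its phosphatase, 3 rose in T vs. S, where 10.3% of all genes were called higher. These were Eif2ak2, the kinase for double-stranded RNA (0.92 ± 0.090, edgeR adjusted P = 0.000184), Impact, an inhibitor of Eif2ak4 activation (0.50 ± 0.13, edgeR adjusted P = 0.0187), and Eif2s1 (0.33 ± 0.079, edgeR adjusted P = 0.0153). Eif2ak4 itself had a log2 fold change of 0.20 (adjusted P = 0.27). Impact fell by 0.62 ± 0.13 on the log2 scale in A + T vs. T (edgeR adjusted P = 0.0223) and Eif2ak2 by 0.38 ± 0.088 (edgeR adjusted P = 0.0338). Eif2ak2 measured 27.6, 29.2 and 29.5 CPM in S, 55.7, 53.6 and 54.6 CPM in T, and 41.1, 37.4 and 47.0 CPM in A + T, with no overlap between any 2 groups. In A + T vs. S it rose (0.54 ± 0.090, edgeR adjusted P = 0.00816).

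Of 22 genes of the Atf4 amino acid response, 21 were tested. In T vs. S, 4 rose and 2 fell, where 10.3% of all genes were called higher and 11% lower. The median log2 fold change was -0.0018. Chac1, which degrades glutathione (1.74), Eif4ebp1, an inhibitor of translation initiation (0.86), Cth, which makes cysteine (0.85), and Slc3a2, a subunit of amino acid transporters (0.80), rose. Phgdh, the entry enzyme of serine synthesis (-1.43), and Aldh18a1, which starts proline synthesis (-1.001), fell. The adjusted P-values of these 6 lay between 0.00123 and 0.0297. The RNA of Atf4 had a log2 fold change of -0.020 (edgeR adjusted P = 0.938), and that of Asns, the asparagine synthetase, of -0.33 (edgeR adjusted P = 0.596). These libraries measure neither Atf4 protein nor phosphorylation of Eif2s1, so flat Atf4 RNA does not show whether that pathway was active. By edgeR's quasi-likelihood test 0 of the 21 passed in A + T vs. T, where 3 had an unadjusted P-value under 0.05. In A + T vs. S Eif4ebp1 rose (0.53, adjusted P = 0.03) and Aldh18a1 fell (-0.68, adjusted P = 0.0187). Over all genes, 3.09% were called higher and 2.79% lower in the former comparison, and 4.67% and 3.64% in the latter.

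Markers of other cells also differed between the groups. Fibroblast and endothelial genes were called lower in T vs. S, and 2 and 1 of them were called higher in A + T vs. T. Cytosolic synthetases went the other way, with 4 called higher in the former and 2 lower in the latter. Over all genes, 10.3% were called higher and 11% lower in T vs. S. The shares were 3.09% and 2.79% in A + T vs. T, and 4.67% were called higher in A + T vs. S. No macrophage gene was called in T vs. S. The 4 fibroblast genes, all called lower in T vs. S, summed to between 1053 and 1249 CPM in S, 717 and 845 CPM in T, and 849 and 1192 CPM in A + T. The 3 endothelial genes, 2 of them called lower in T vs. S, summed to between 581 and 692 CPM in S, 337 and 425 CPM in T, and 449 and 526 CPM in A + T. The 5 macrophage genes were all called higher in A + T than in T and S, with sums between 263 and 296 CPM in S, 236 and 326 CPM in T, and 486 and 722 CPM in A + T. The 6 ventricular genes summed to between 55695 and 61856 CPM in S, 42678 and 52559 CPM in T, and 39734 and 55567 CPM in A + T, with 1 called higher and 1 lower in T vs. S. The 5 atrial genes ran from 3000 to 3084 CPM in S, from 861 to 4554 CPM in T and from 793 to 2055 CPM in A + T, and 1 of them, Bmp10, was called lower in T vs. S. Of the 6 adipocyte genes 2 were not listed and the rest summed to no more than 78.1 CPM, and of 5 erythroid genes only Alas2 was listed, at between 68.4 and 341 CPM. The part of these cells in the synthetase levels was not tested. Without the libraries of animals 12 and 22, which held the airway genes, Cars, Eprs and Kars were called in T vs. S, as was Aars2, Kars was called in A + T vs. T, and Yars was called in A + T vs. S.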

How the data were processed

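Heart mRNA of 9 NSG male mice was sequenced, 3 libraries each labelled S, T and A + T, with the animal numbers taken from the labels. The authors aligned reads to mm10 with STAR and deposited raw counts per gene, without normalization, and log2 values per gene. The submitters' processing notes also name FastQC and edgeR. The deposited log2 values differed from log2 CPM computed here by a constant per gene (median SD over libraries 0.00239), as a scaling by gene length gives, and were used for levels between genes. Rows without a gene name (3443) held no value and were left out.

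A gene was removed where more than 4 libraries had it under 0.5 CPM. All 9 libraries were fitted together in edgeR 4.0.16 (R 4.3.3) with TMM scaling by the quasi-likelihood test. P-values were adjusted over the 13364 genes tested. The steps were tested on simulated data with larger changes than those of the called members. Recovery of changes as small as theirs was not tested. The SE is the size of the log2 fold change over the square root of F. DESeq2 1.42.0, limma 3.58.1 and further settings were alternatives. The chi-square per gene between 2 libraries of a group was 7.63 or more. The P-values set each difference against the spread between libraries within groups, which edgeR estimates with information from all genes. An exact permutation test of 3 against 3 cannot go below 0.1, and 3 counts, the limit below which no level was read, equal 0.152 to 0.281 CPM, counting error only.

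The members and lists were chosen with earlier results of these data known. Full values are given for members past the threshold in T vs. S or A + T vs. T and for the member with the highest level per length in each compartment. Values per library are also given for Mars, Yars, Rars, Aars, Vars2 and Yars2, which were chosen after their values were seen. Promoters are from RefSeq and positions from GENCODE M21. Python 3.11.15 with matplotlib 3.10.9 drew the figures.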

Additional observations from a re-analysis of the deposited data

How the results depend on the processing

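Counts of members called are given as cytosolic and mitochondrial in T vs. S, cytosolic in A + T vs. T, and cytosolic and mitochondrial in A + T vs. S, where the reported values were 4, 1, 2, 0 and 0. The first count was 0 with library size only, 2 with the Rn45s share as covariate, 7 at an adjusted P-value under 0.1, 0 at the study's thresholds and between 0 and 7 when each library was left out. The second was 0 with DESeq2, library size only, the deposited log2 values in limma, the Rn45s covariate or the study's thresholds, 3 with upper-quartile scaling or at 0.1, 2 with only the groups compared and between 0 and 2 with a library left out. The third was 4 with DESeq2, 1 with limma-voom, a minimum of 10 counts per library, no filter or without animals 12 and 22, 0 with upper-quartile scaling, library size only, only the groups compared, the deposited log2 values, the Rn45s covariate or the study's thresholds, 5 at 0.1 and between 0 and 2 with a library left out. In A + T vs. S, 1 cytosolic gene was called without animals 12 and 22, and 2 cytosolic and 1 mitochondrial at 0.1. The cause of these changes was not tested. After the data were seen, 3 alternatives were added: the Rn45s covariate, the fit without animals 12 and 22 and the sums without Lars2.

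The fold changes of Kars, Cars, Eprs, Qars and Aars2 in T vs. S kept their direction in every setting run. Lars2 in T vs. S ran from -1.65 to 0.67 as each library was left out and turned to 0.25 without animals 12 and 22 and 0.22 with the Rn45s covariate. It also turned in A + T vs. T, to -0.15 without animals 12 and 22 and -0.25 with the covariate, and in A + T vs. S, to -0.022 with the covariate. Values near 0 crossed it when each library was left out, with ranges of -0.0091 to 0.12 for Aars2 in A + T vs. T and, in A + T vs. S, of -0.021 to 0.093 for Kars (-0.021 without both animals 12 and 22), -0.082 to 0.019 for Cars and -0.014 to 0.066 for Qars. No paired analysis was possible because the groups share no animal numbers. The lowest count of a member was 61, against the limit of 3 counts below which no level was read, and the precision rests on 3 libraries per group.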
